A study of Homo sapiens with 8 samples.

Results

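RMG1 cells with reduced NCAPH2 were compared with RMG1 cells that carried a control shRNA. RMG1 is an established human line of ovarian clear cell carcinoma, a tumour of epithelial origin, and NCAPH2 is the gene of CAPH2, a subunit of the condensin II complex. The comparison takes all 4 libraries that the labels give to the shRNA experiment, of 8 libraries in the series: 2 of shRNA control cells (ARID1A wild type, shControl) and 2 of knockdown cells (ARID1A wild type, shCAPH2). The other 4 libraries, 2 of wild-type cells, for which the labels name no shRNA, and 2 of ARID1A-knockout cells made with CRISPR, entered the fit for the estimate of spread and served as a reference. ARID1A belongs to the SWI/SNF complex, which remodels chromatin. The labels name 1 shRNA target and do not say how many hairpins, clones or separate cultures were used, nor how long after the shRNA the cells were taken, so p-values here rest on the spread of these libraries alone, and that spread may be technical. Total counts were 32831617 and 36731763 in the control libraries and 31791100 and 31562201 in the knockdown libraries. Levels are given as CPM, a count relative to the scaled total of its library, and a single count was worth 0.0279 to 0.0323 CPM in these 4 libraries, which limits what can be seen of genes near 0. The 4 libraries are called control 1, control 2, knockdown 1 and knockdown 2, and values given as a pair follow that order within a group.

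Condensins are ring-shaped complexes of a pair of SMC proteins, SMC2 and SMC4, with a kleisin subunit and a pair of HEAT-repeat subunits. Condensin I reaches chromosomes after the nuclear envelope opens, while condensin II is in the nucleus throughout the cell cycle, where it acts on chromosome condensation and on the layout of interphase chromosomes. NCAPH2 is the kleisin of condensin II, and its HEAT-repeat subunits are NCAPD3 and NCAPG2. The comparison asked which transcripts differ when CAPH2 is reduced in ARID1A wild-type cells.

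NCAPH2 (ENSG00000025770, chromosome 22) stood at 24.02 and 25.8 CPM in the control and at 8.98 and 8.74 CPM in the knockdown libraries. Both knockdown values lay below every other library of the series, since wild-type cells had 26.8 and 29.99 CPM and ARID1A-knockout cells 20.97 and 23.9 CPM. The fall was −1.49 on the log2 scale (SE 0.10, edgeR adjusted p = 1.84e-06, n = 2 per group), and it lay between −1.44 and −1.54 with any 1 of the 4 libraries left out. The HEAT-repeat partners in condensin II did not pass the test: NCAPD3 stood at 32.00 and 33.9 CPM against 31.6 and 31.5 CPM (−0.06), and NCAPG2 at 82.1 and 88.7 CPM against 85.2 and 80.9 CPM (−0.04). Of the condensin I subunits, NCAPD2 was lower, at 122 and 120.4 CPM in the control and 94.4 and 91.9 CPM in the knockdown (−0.38, SE 0.08, edgeR adjusted p = 0.00515). Its call did not hold without knockdown 2 (−0.36). SMC4, shared by both complexes, also passed (−0.19) and lost its call without each of the 4 libraries in turn (−0.15 to −0.24). NCAPH, NCAPG and SMC2 did not pass, with log2 fold changes of −0.08, 0.06 and −0.04. Of the 8 subunits, 3 were called lower (2 without control 1, control 2 or knockdown 1, and 1 without knockdown 2) and none higher.

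**Figure D1:**
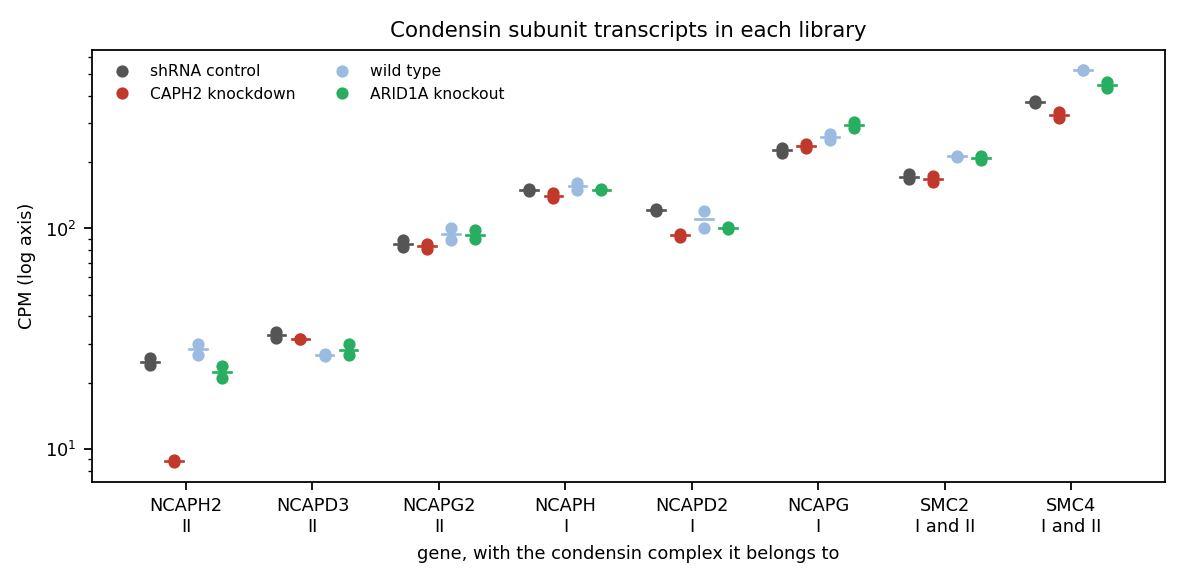
Level of the 8 condensin subunit transcripts in each of the 8 libraries, in CPM on a log axis. Points are libraries and short bars group means (n = 2 per group). NCAPH2 stands at 8.98 and 8.74 CPM in the knockdown libraries and higher in all others.

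Of 16657 genes tested, 2639 (15.8%) passed a Benjamini-Hochberg adjusted p under 0.05 in edgeR's quasi-likelihood test, 1270 higher (7.62%) and 1369 lower (8.22%) in the knockdown. Most differences were small: 1642 of the called genes (62.2%) differed by less than 1.5-fold, and the median size over called genes was 0.46 on the log2 scale. At least 2-fold differences were found in 253 genes that rose (1.52% of those tested) and 241 that fell (1.45%), and at least 8-fold in 60 that rose and 27 that fell. The median over all genes tested was 0. The share called rose with level, from 3.38% of genes under 1 CPM to 31.9% of genes at 100 CPM or more. Leaving out 1 library lowered the count to 1388 (control 1), 1499 (control 2), 1548 (knockdown 1) or 1533 (knockdown 2).

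Measured against counting error, the knockdown pair differed more between its libraries than the control pair, with a chi-square per degree of freedom of 15.9 against 4.496. That measure gives most weight to abundant genes. The correlation of log2 CPM over genes was similar in both pairs, 0.985 for the knockdown and 0.987 for the control. Wild-type cells gave a second reference for the direction of change. In 2222 of the 2639 called genes (84.2%), both knockdown libraries lay above, or both lay below, all 4 libraries of control and wild-type cells; this held for 36.0% of all genes tested. It held for 231 of the genes at least 2-fold higher (91.3%) and 216 of those at least 2-fold lower (89.6%). In 2638 of the 2639 called genes the control and knockdown libraries did not overlap, so the call had already met the control part of this criterion. The higher shares among called genes than among all genes largely follow from that and are not separate support.

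**Figure D2:**
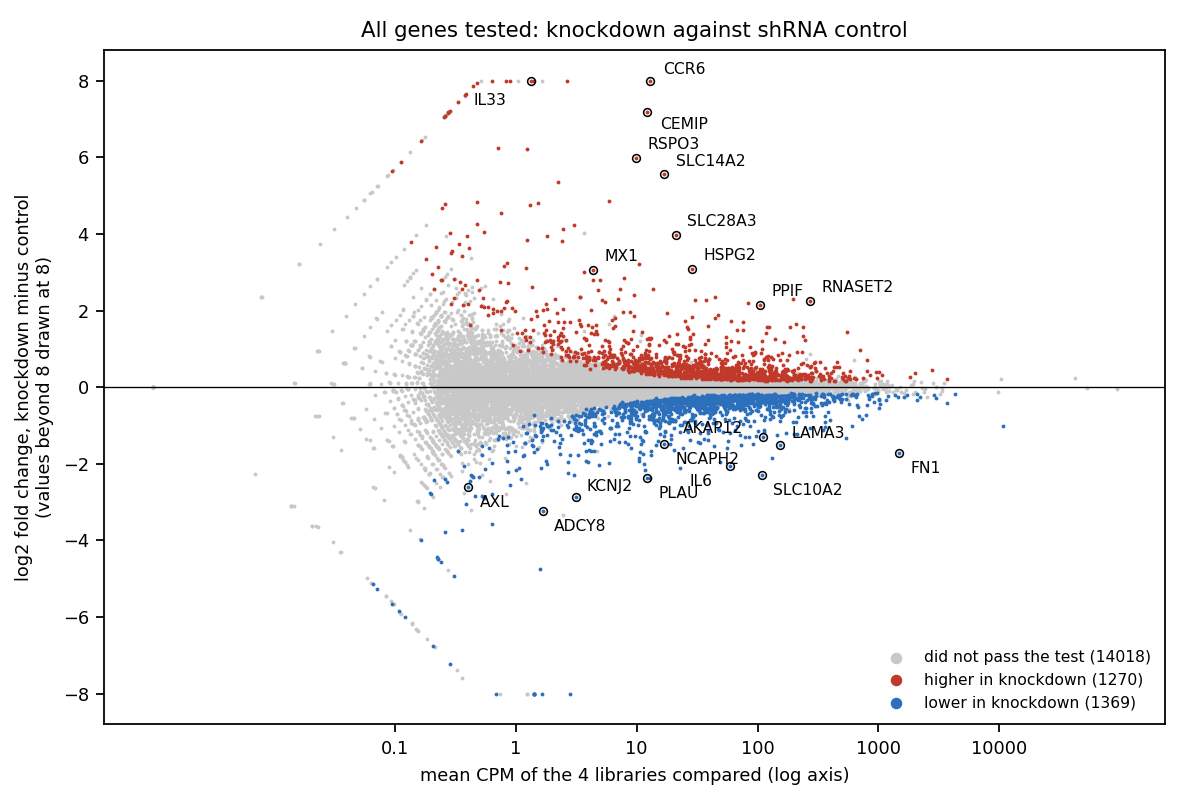
Log2 fold change, knockdown minus shRNA control, against the mean CPM of the 4 libraries compared (log axis), 1 point per gene tested. Red points (1270) and blue points (1369) passed the test, grey points did not. Named genes are circled, and values beyond 8 are drawn at 8, as for CCR6 and IL33, which had no control count.

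The 15 largest rises are given for protein-coding genes with a mean of at least 1 CPM over the 4 libraries and no overlap between groups, and the 15 largest falls by the same rule. CCR6, the receptor of the chemokine CCL20, had no count in either control library and reached 27.6 and 24.2 CPM in the knockdown, at least 588.6-fold higher. IL33, a cytokine stored in the nucleus, had no control count either and reached 2.900 and 2.45 CPM, at least 60.8-fold higher. Neither gene had a count in the wild-type or ARID1A-knockout libraries, so their counts in the series came from the knockdown libraries only. PLCL1, a catalytically inactive relative of phospholipase C, had 1 control count and 5.83 and 4.74 CPM in the knockdown (ratio 360.5, counting interval 64.3 to 14280). The transmembrane serine protease gene TMPRSS11E rose from 0.0619 and 0 to 2.65 and 2.29 CPM, a ratio of 84.2 with a counting interval of 22.9 to 701.1.

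CEMIP, which takes part in hyaluronan breakdown, stood at 0.0309 and 0.279 CPM in control and 24.9 and 23.3 CPM in knockdown libraries (log2 fold change 7.19, SE 0.37); with so few control counts the value was 6.41 without control 1 and 9.43 without control 2. RSPO3, a secreted enhancer of WNT signals, stood at 0.155 and 0.447 CPM and 18.6 and 20.7 CPM (5.98, SE 0.39; 6.96 without control 2), and wild-type cells held 1.65 and 0.5795 CPM. SLC14A2, a urea transporter gene, stood at 0.805 and 0.614 CPM and 34.8 and 31.9 CPM (5.55, SE 0.19). The control and knockdown libraries of these 3 genes were far apart, and the knockdown pair lay above all other libraries of the series. SLC28A3, a sodium-coupled nucleoside transporter, had a measurable level in every group: 2.32 and 2.71 CPM in control, 40.8 and 39.1 CPM in knockdown, 1.45 and 1.05 CPM in wild-type and 1.04 and 0.862 CPM in ARID1A-knockout libraries (3.98, SE 0.14, edgeR adjusted p = 1.1e-08). The remaining 7 of the 15 were KRT222 (5.36), THSD7A (4.80), the acute-phase protein gene ORM1 (4.76, not called by DESeq2), the BCL2 relative BCL2L15 (4.12), the water channel gene AQP1 (3.83), the cartilage matrix gene CILP (3.22) and LBP, which binds bacterial lipopolysaccharide (3.12). Except for CILP, the values of these genes rest on few control counts. Without control 1 they were 10.15 for KRT222, 9.34 for ORM1, 3.20 for AQP1 and 3.468 for LBP. Without control 2 they were 4.32, 3.73, 5.16 and 2.815 for these genes, 5.49 for THSD7A and 4.87 for BCL2L15.

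Among genes with a mean of at least 100 CPM, 8 protein-coding genes led the rises, by 2.97- to 4.96-fold. TRIM55, a RING-finger protein of muscle sarcomeres, went from 63.6 and 67.8 to 331 and 320.5 CPM (2.31, SE 0.07). RNASET2, a secreted and lysosomal ribonuclease, went from 93.8 and 96.3 to 447 and 458 CPM (2.25, SE 0.06). PPIF, the mitochondrial cyclophilin D, went from 38.8 and 38.4 to 168 and 173 CPM (2.15, SE 0.05). In each of these genes the libraries of a group lay close together and the groups far apart. TRIM55 was also high in ARID1A-knockout cells (302 and 309 CPM), against 137 and 120.2 CPM in wild-type cells. Others of the 8 were GBP2, an interferon-inducible GTPase (1.65), P4HA1, a prolyl hydroxylase of collagen (1.58), ST14, the membrane protease matriptase (1.58), and RALGPS2, an exchange factor of Ral GTPases (1.57).

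ADCY8, an adenylyl cyclase that makes cyclic AMP, stood at 2.600 and 3.46 CPM in the control and 0.473 and 0.161 CPM in the knockdown (−3.24, SE 0.32; −4.21 without knockdown 1). KCNJ2, an inward-rectifier potassium channel, stood at 5.602 and 5.45 against 0.914 and 0.5804 CPM (−2.88, SE 0.22). PLAU, the urokinase-type plasminogen activator, stood at 20.02 and 21.2 against 4.07 and 3.902 CPM (−2.37, SE 0.09). Wild-type libraries lay near or above the control level in all 3 genes, with 19.7 and 19.01 CPM for ADCY8, 7.98 and 8.87 CPM for KCNJ2 and 19.5 and 19.99 CPM for PLAU, so that for ADCY8 the control cells themselves stood well below wild type. The membrane-skeleton gene ANK1 fell from 21.9 and 21.1 to 4.16 and 4.22 CPM (−2.36, SE 0.08), and IL6, the interleukin-6 gene, from 96.9 and 92.96 to 24.6 and 21.1 CPM (−2.05, SE 0.08). The 15 largest falls also held SIGLEC15 (−2.40), the sphingosine-1-phosphate exporter SPNS2 (−2.24), the cytokine gene LTB (−2.15), FAM25A (−2.15), SHISA2 (−2.12), the scavenger receptor COLEC12 (−2.10), the adenylate kinase AK5 (−2.04) and PORCN, the acyltransferase that WNT proteins need for secretion (−2.02).

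By fitted value the largest of the 15 falls was that of RIOX1, a histone demethylase gene, with 4.61 and 2.07 CPM in the control and no count in the knockdown, at least 68.5-fold lower. RIOX1 had no count in the wild-type and ARID1A-knockout libraries either, so the control libraries were those that stood apart, and DESeq2 did not call the gene (adjusted p = 0.234).

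At a mean of at least 100 CPM, the 8 largest falls by the same rule follow. FN1, or fibronectin, was among the most abundant transcripts of these cells and stood at 2336 and 2233 CPM in control and 699 and 686 CPM in knockdown libraries (−1.72, SE 0.08, edgeR adjusted p = 7.21e-08). SLC10A2, the sodium-coupled bile acid transporter, fell from 181 and 179 to 37.1 and 36.2 CPM (−2.29, SE 0.05), and SLC7A8, an exchanger of neutral amino acids, from 212 and 199 to 54.95 and 60.2 CPM (−1.84, SE 0.09). LAMA3, a chain of laminin-332, fell from 231 and 223 to 80.5 and 79.1 CPM (−1.51, SE 0.06); wild-type cells lay in between, at 116 and 122 CPM. TMSB4X, which binds actin monomers (−1.32), PLCB4, a phospholipase C (−1.25), and GNPTAB, which tags lysosomal enzymes (−1.20), completed the group with AKAP12, an anchor of protein kinase A. AKAP12 stood at 158 and 160.1 CPM in control and 66.9 and 62.4 CPM in knockdown libraries (−1.30), and wild-type cells were at the knockdown level (54.8 and 61.6 CPM).

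The members of 46 gene lists were then read by their counts, beside 7.62% of all genes tested called higher and 8.22% called lower. The shares differed widely between lists. They were not matched for level, and the share called was 31.9% of genes at 100 CPM or more. In many lists fewer members were called with 1 of the 4 libraries left out, also where this is not stated below. Type I interferon-stimulated genes had the highest share of members that rose, 17 of 35, and YAP and TGF-beta targets the highest share of members that fell, 9 of 21, among the 41 lists with at least 8 tested members. Cytosolic ribosomal protein genes had 1 called member of 48 (none without control 1 or either knockdown library) and nuclear oxidative phosphorylation subunits 3 of 37 (none without control 1 or knockdown 1).

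**Figure D3:**
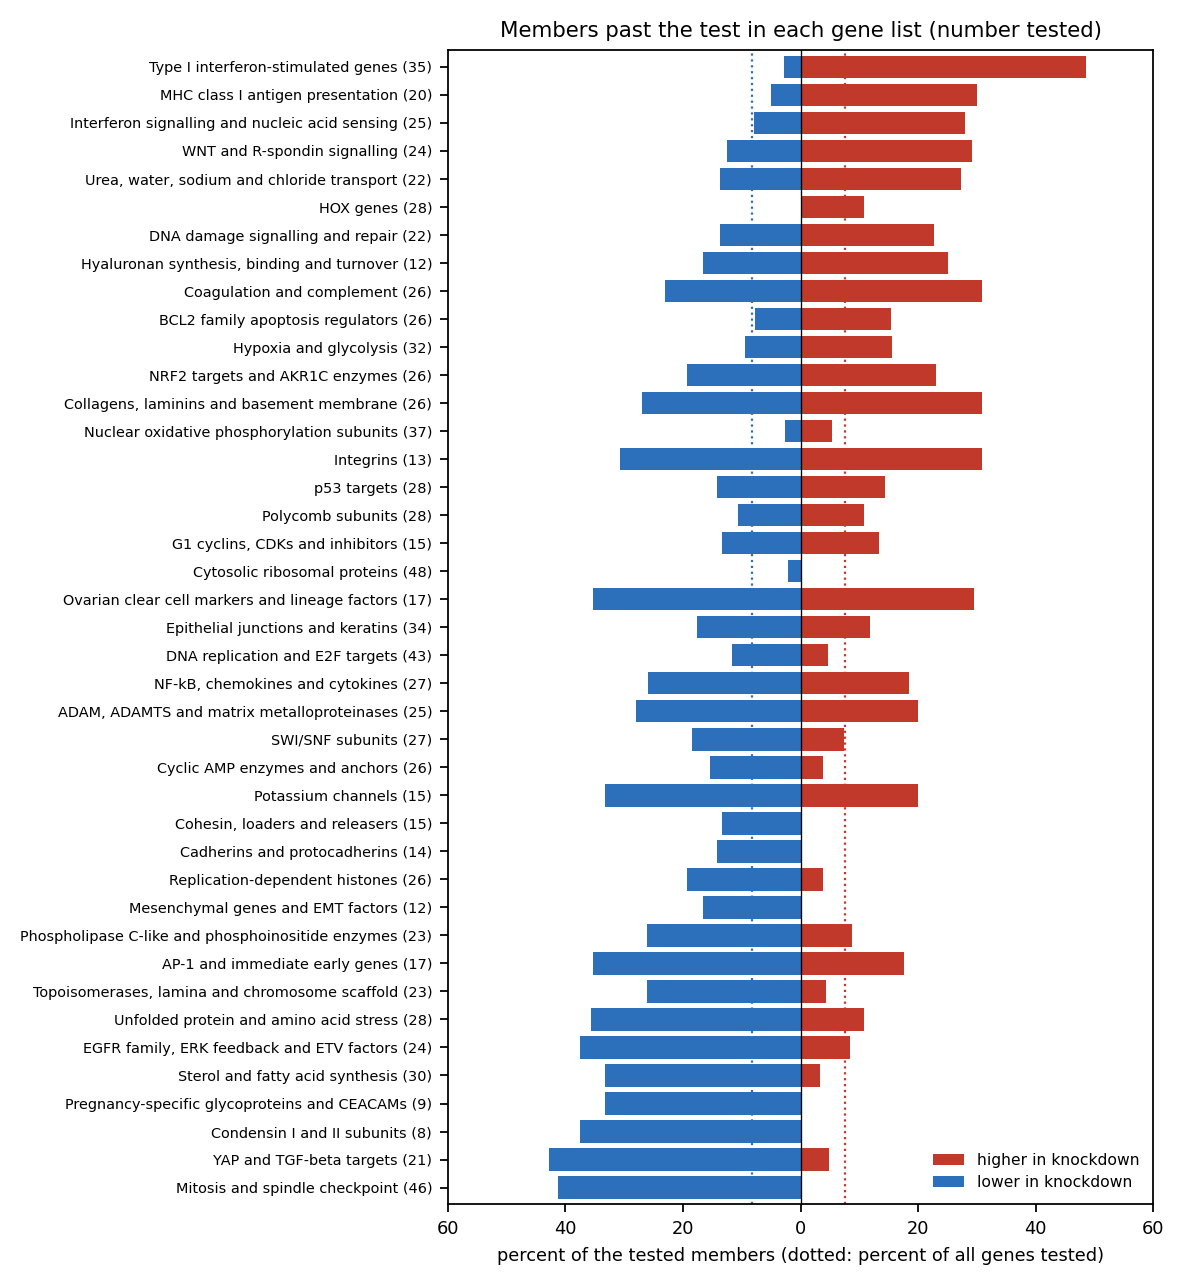
Percent of the tested members of each list that were called higher (right, red) or lower (left, blue) in the knockdown, for the 41 lists with at least 8 tested members; the number tested follows each name. Dotted lines are the shares of all genes tested, 7.62% higher and 8.22% lower.

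Interferons signal through JAK kinases to STAT proteins and IRF9, which bind interferon response elements in the promoters of antiviral genes. Of 41 listed type I interferon-stimulated genes, 35 had enough counts to be tested; 17 rose, 8 of them at least 2-fold, and 1 fell, and the median was 0.74 against 0 over all genes. The number of members called higher was 12 or 13 with any 1 of the 4 libraries left out. MX1, a GTPase that blocks viruses, stood at 0.928 and 0.949 CPM in the control and 7.66 and 8.03 CPM in the knockdown (3.06, SE 0.35, edgeR adjusted p = 0.000117). ISG15, a ubiquitin-like modifier, stood at 12.7 and 13.3 against 26.7 and 25.8 CPM (1.01, SE 0.09), and IFITM1, which restricts viral entry, at 3.002 and 3.55 against 9.58 and 10.2 CPM (1.59, SE 0.15). In all 3 genes the groups did not overlap, and the wild-type libraries lay below the control. ARID1A-knockout cells had as much IFITM1 as the knockdown (9.76 and 9.74 CPM), against 2.23 and 1.96 CPM in wild-type cells. TRIM22 (1.74), IFI6 (1.04) and PARP9 (0.96) also rose; these 3 and IFITM1 were named after their values were seen. OAS2 (2.81) and USP18 (1.95) passed but lost their calls without each of the 4 libraries (2.50 to 3.19 for OAS2, 1.73 to 2.19 for USP18), and IFIT1 (1.07) lost its call without control 1 (1.03) or knockdown 2 (0.99). HERC5 was the member that fell (−0.30), a call lost without control 2 (−0.18), knockdown 1 (−0.33) or knockdown 2 (−0.28).

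Promoters are shown for MX1 and IFITM1, the called members with the largest rises for which RefSeq promoters were at hand, to place the interferon response element. Each sequence runs 5′ to 3′ on the gene's strand from 160 bases before to 30 bases after the RefSeq start site (GRCh38.p14), and capitals mark GAAA-NN-GAAA, a core of the element.
MX1 (+ strand, chr21:41420398-41420587): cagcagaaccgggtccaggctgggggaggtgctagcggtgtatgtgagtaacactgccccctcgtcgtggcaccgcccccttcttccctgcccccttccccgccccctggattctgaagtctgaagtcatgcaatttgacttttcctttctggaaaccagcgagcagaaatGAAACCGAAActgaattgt
IFITM1 (+ strand, chr11:313880-314069): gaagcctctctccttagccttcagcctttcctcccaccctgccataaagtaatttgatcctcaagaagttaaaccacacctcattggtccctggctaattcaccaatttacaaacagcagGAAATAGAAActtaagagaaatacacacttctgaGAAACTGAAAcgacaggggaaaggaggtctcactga
MX1 held 1 match after its start site and IFITM1 held 2 before or across it. The core was searched on both strands of windows of 300 bases (250 before to 50 after the start). It was found in 315 of 11174 promoters of tested genes (2.82%), in 20 of 27 tested members of the list (74.1%) and in 11 of 13 members that rose (84.6%). A match is a description of letters and not of binding.

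Of 25 tested genes of interferon signalling and nucleic acid sensing, 7 rose and 2 fell, with a median of 0.19. Those that rose numbered 3 without control 1, 1 without control 2 or knockdown 1 and 4 without knockdown 2, and those that fell numbered 1 without any of the 4. JAK1, the receptor-bound kinase, fell from 544 and 557 to 432 and 418 CPM (−0.37, SE 0.05). IRF9 (0.67) lost its call without control 2 (0.59) or knockdown 1 (0.59). CGAS, the sensor of cytosolic DNA, passed as lower (−0.25) and lost its call without each library (−0.21 to −0.29). Of 20 genes of MHC class I antigen presentation, 6 rose and 1 fell (median 0.20), and 3 rose without each of the 4 libraries in turn. B2M, the light chain of class I molecules, went from 789 and 849.9 to 1063 and 1103 CPM (0.40) and HLA-F from 18.6 and 19.5 to 25.6 and 26.8 CPM (0.46). NLRC5, which switches class I genes on, fell (−0.55), and TAP1, a peptide transporter, did not pass (−0.11).

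Cytokine and NF-kB genes went both ways. Of 27 tested members, 5 rose and 7 fell. Some of the rises and some of the falls lost their calls when 1 of the 4 libraries was left out. TNFAIP3, an inhibitor of NF-kB signalling, stood at 22.2 and 21.1 CPM in the control and 7.54 and 7.61 CPM in the knockdown (−1.51, SE 0.11). BIRC3, an inhibitor of apoptosis, stood at 37.3 and 42.2 against 15.04 and 15.5 CPM (−1.38, SE 0.10), and NFKBIA, the inhibitor that holds NF-kB in the cytoplasm, at 16.4 and 16.7 against 8.92 and 10.7 CPM (−0.75, SE 0.13). All 3 are themselves induced by NF-kB, and in all 3 both knockdown libraries lay below the control and wild-type libraries, as they did for IL6. CXCL8, a chemokine of neutrophils, moved the other way, from 4.27 and 6.23 to 11.1 and 12.6 CPM (1.17, SE 0.15). CCL20, the ligand of CCR6, was near 0 in all 4 libraries, at 0.588 and 0.614 CPM in control and 0.0315 and 0 CPM in knockdown libraries (37.8 times as many per library size in the control, counting interval 6.41 to 1527), and its call was lost without control 2 (−4.90), knockdown 1 (−7.29) or knockdown 2 (−4.10). Of 22 chemokine receptor genes listed, 3 were tested; CCR6 and CXCR4 rose, the latter from 94.1 and 92.5 to 148 and 156 CPM (0.71). The leading genes are shown in the map of levels by library, with the wild-type and ARID1A-knockout values beside them.

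**Figure D4:**
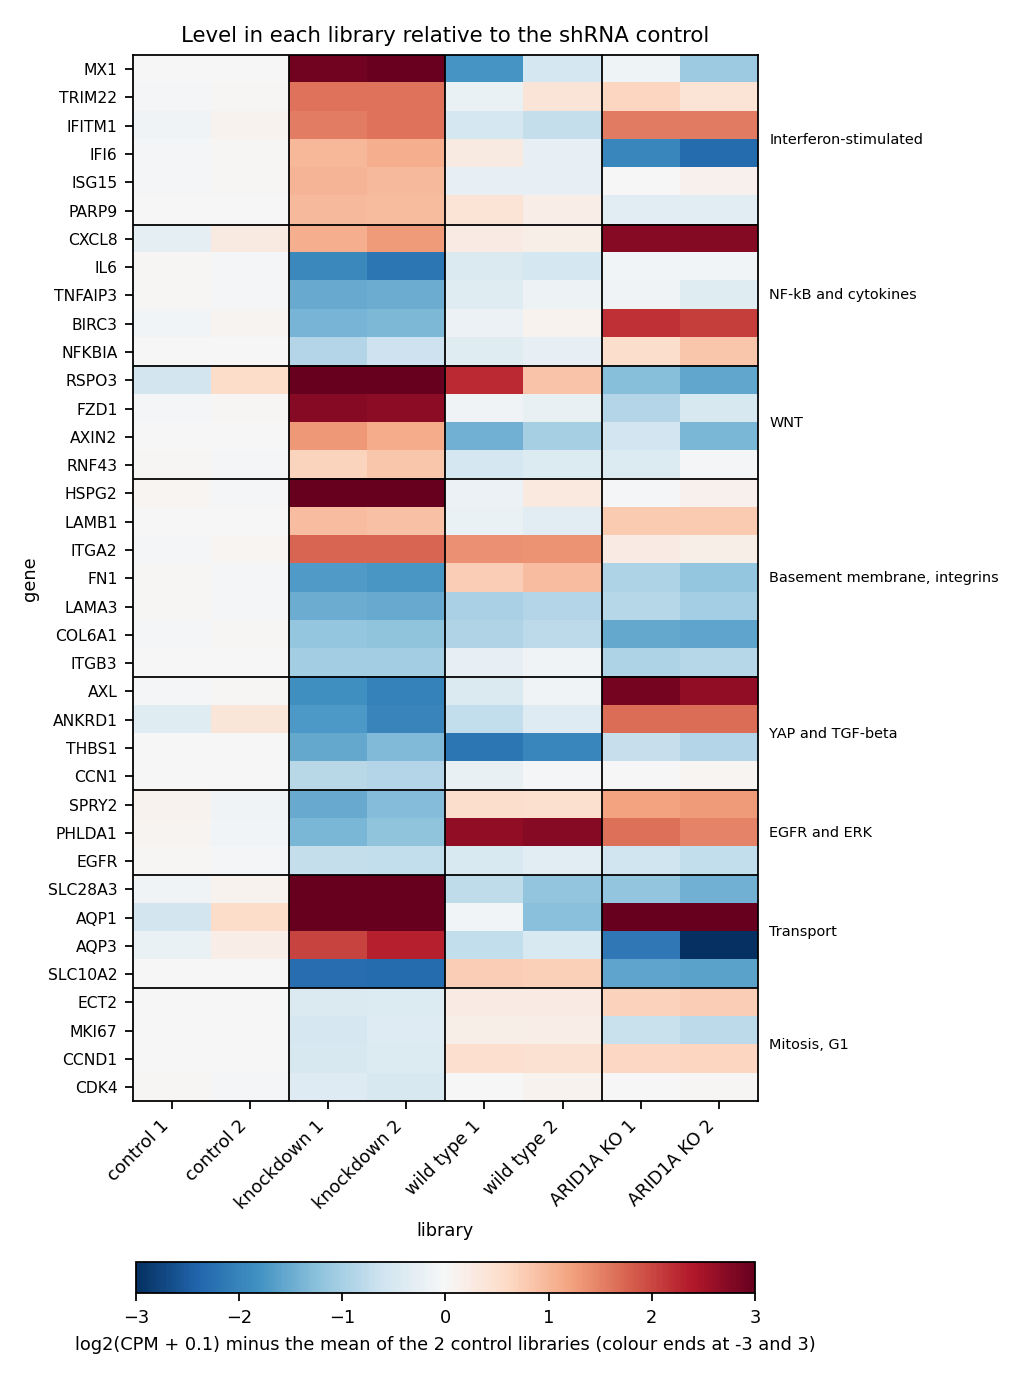
Level of 37 named genes in each of the 8 libraries, as log2(CPM + 0.1) minus the mean of the control libraries; rows are genes by group, columns libraries, and the colour ends at −3 and 3. Both knockdown libraries have the same colour direction in every row, and for genes such as THBS1, COL6A1 and ITGA2 the wild-type libraries are shifted the same way from the control.

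Mitotic genes were lower by small amounts. Of 46 genes of mitosis and the spindle checkpoint, 19 fell and none rose, with a median of −0.16, and no fall reached 2-fold. The count was 3 without control 1, 11 without control 2, 6 without knockdown 1 and 4 without knockdown 2. MKI67, a proliferation marker that coats mitotic chromosomes, stood at 332 and 335 CPM in control and 235 and 254 CPM in knockdown libraries (−0.45, SE 0.06). ECT2, which starts cytokinesis and was named after its values were seen, stood at 417 and 412 against 309 and 312 CPM (−0.42, SE 0.05). The groups did not overlap in either gene. The kinase genes PLK1 (20.8 and 16.7 to 13.5 and 12.6 CPM, −0.52) and AURKB (24.1 and 19.8 to 15.6 and 15.2 CPM, −0.51) had the largest falls of the list, and both lost their calls without control 1 (−0.36 each), knockdown 1 (−0.58 and −0.53) or knockdown 2 (−0.48 and −0.49). CCNB1, cyclin B1 (−0.31), lost its call without control 1 (−0.29) or knockdown 2 (−0.29). CDK1 did not pass, at 146 and 148 against 151 and 148 CPM.

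Promoters of PLK1 and AURKB are shown because mitotic genes share a cell-cycle homology region with nearby NF-Y boxes. Capitals mark TTTGAA, a form of that region, and CCAAT, the NF-Y box, on either strand, over the same window as above.
PLK1 (+ strand, chr16:23678729-23678918): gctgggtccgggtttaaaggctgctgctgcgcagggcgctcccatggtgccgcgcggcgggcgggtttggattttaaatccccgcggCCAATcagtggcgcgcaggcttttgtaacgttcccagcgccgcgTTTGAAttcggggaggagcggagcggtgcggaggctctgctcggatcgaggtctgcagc
AURKB (- strand, chr17:8210196-8210385): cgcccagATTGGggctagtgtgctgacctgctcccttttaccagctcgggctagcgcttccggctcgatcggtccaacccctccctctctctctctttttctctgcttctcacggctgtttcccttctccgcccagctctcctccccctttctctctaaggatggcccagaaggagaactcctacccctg
PLK1 held 1 match of each, and AURKB held the NF-Y box on the opposite strand and no TTTGAA in the 300-base window. TTTGAA was found in 9.97% of the 11174 promoters, in 26 of 39 tested members of the mitosis list (66.7%) and in 10 of 15 members that fell (66.7%). CCAAT was found in 37.1% of all promoters, in 30 of the 39 (76.9%) and in 13 of the 15 (86.7%).

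Of 43 genes of DNA replication, 2 rose and 5 fell, a share (16.3%) near the 15.8% of all genes; at most 2 of the list were called with any 1 library left out. PCNA, the replication clamp (309 and 312 against 317 and 316 CPM), and MCM2, of the replicative helicase (79.9 and 81.5 against 72.5 and 71.2 CPM), did not pass. Of 15 G1 genes, CCND1, or cyclin D1, fell from 204 and 198 to 144 and 150.4 CPM (−0.45, SE 0.05) and its kinase CDK4 from 69.5 and 66.7 to 52.3 and 48.8 CPM (−0.43, SE 0.06). The inhibitor genes CDKN1A (0.30) and CDKN1B (0.23) passed as higher and lost their calls without each of the 4 libraries (0.27 to 0.33 and 0.21 to 0.25). CDKN1A was higher still in wild-type cells, at 44.5 and 53.6 CPM, against 25.9 and 26.7 CPM in control and 33.1 and 32.0 CPM in knockdown libraries. Of 28 p53 targets, 4 rose and 4 fell; MDM2 did not pass (0.13), and GADD45A rose (0.47). The p53 targets that rose numbered 2 without control 1, 1 without control 2, 3 without knockdown 1 and 1 without knockdown 2, and those that fell 2 without either control library or knockdown 2.

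Of 22 genes of DNA damage signalling and repair, 5 rose and 3 fell. The checkpoint kinase gene CHEK2 went from 34.2 and 33.98 to 76.5 and 75.7 CPM (1.16, SE 0.07), and ATM, which activates it, from 209 and 201 to 305 and 309 CPM (0.58, SE 0.05). CHEK1 passed as lower (−0.23) and lost its call without each of the 4 libraries (−0.20 to −0.26). Those that rose numbered 2 without each library in turn, and those that fell 1 without control 1, 0 without control 2 or knockdown 1 and 2 without knockdown 2. BRCA1 did not pass (−0.01).

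WNT signals pass from secreted, PORCN-modified ligands to Frizzled receptors, and R-spondins prolong them by removing the ligases RNF43 and ZNRF3, which degrade Frizzled proteins. Of 24 tested WNT and R-spondin genes, 7 rose (5 without control 1 or knockdown 1, 4 without control 2 or knockdown 2) and 3 fell (2, or 1 without knockdown 2). RSPO3 led the rises. The receptor gene FZD1 went from 1.21 and 1.28 to 8.83 and 8.48 CPM (2.79, SE 0.22), and AXIN2, a feedback target of the pathway, from 3.28 and 3.29 to 8.23 and 7.29 CPM (1.24, SE 0.24). RNF43, another feedback target, named after its values were seen, went from 9.099 and 8.66 to 14.2 and 15.9 CPM (0.76, SE 0.14). In these genes the knockdown libraries lay above all 4 control and wild-type libraries. LGR5, an R-spondin receptor, was near 0 in the control (0.0619 and 0 CPM) and at 0.473 and 0.613 CPM in the knockdown (ratio 18.5, counting interval 4.73 to 158.6), and lost its call without control 2 (3.05) or knockdown 2 (3.83). FZD7 fell from 29.7 and 31.3 to 15.01 and 16.1 CPM (−0.97, SE 0.09).

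Matrix genes changed in both directions. Of 26 collagens, laminins and other basement membrane genes, 8 rose and 7 fell. That is 57.7%, against 15.8% of all genes and 31.9% of genes at 100 CPM or more. HSPG2, the basement membrane proteoglycan perlecan, stood at 6.28 and 5.78 CPM in the control and 51.7 and 51.4 CPM in the knockdown (3.10, SE 0.13), and at 5.33 and 7.46 CPM in wild-type cells. LAMB1, a laminin chain named after its values were seen, rose from 111 and 112 to 210.3 and 204 CPM (0.90), and COL4A1, a chain of collagen IV, from 301 and 300.5 to 428 and 428 CPM (0.51). COL4A3 also rose (1.13). The laminin-332 chains LAMA3 and LAMB3 (264 and 282 to 139 and 154 CPM, −0.90) fell with FN1 and with both collagen VI chains: COL6A2 fell from 134 and 137 to 48.01 and 49.7 CPM (−1.47) and COL6A1, named after its values were seen, from 36.1 and 38.2 to 16.7 and 16.1 CPM (−1.18). LAMA4 was under 1 CPM in all 4 libraries (2.16) and lost its call without control 1 (1.40) or knockdown 1 (1.95).

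Of 13 tested integrin genes, 4 rose and 4 fell. ITGA2, a chain of a collagen receptor, stood at 26.9 and 28.7 CPM in control and 92.8 and 92.7 CPM in knockdown libraries (1.74, SE 0.06); wild-type cells, at 72.3 and 70.4 CPM, were nearer to the knockdown. ITGB3, a chain of a receptor of fibronectin and vitronectin, fell from 495 and 479 to 236 and 235 CPM (−1.05, SE 0.06). ITGB1 did not pass, at 2101 and 2197 against 2357 and 2388 CPM. The integrins that rose numbered 3, or 1 without control 2, and those that fell 2, or 4 without knockdown 2. Of 12 genes of hyaluronan metabolism, 3 rose, with all libraries and without each in turn: CEMIP, TNFAIP6, which binds hyaluronan (23.3 and 22.6 to 50.5 and 50.4 CPM, 1.14), and UGDH, which makes its sugar precursor (0.30). The members that fell numbered 2, or 1 without control 1. CD44, the hyaluronan receptor, was among them and went from 331 and 328 to 232 and 222 CPM (−0.54, SE 0.05).

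Proteases and coagulation genes changed in both directions. Of 25 ADAM, ADAMTS and matrix metalloproteinase genes, 5 rose and 7 fell. The sheddase gene ADAM9 went from 298 and 295 to 789.8 and 826 CPM (1.45, SE 0.05), MMP7, or matrilysin, from 832 and 905 to 516 and 520.5 CPM (−0.75, SE 0.05) and MMP1, a collagenase, from 18.97 and 19.7 to 11.8 and 10.4 CPM (−0.80, SE 0.11). Of 26 coagulation and complement genes, 8 rose and 6 fell. PLAT, the tissue-type plasminogen activator, passed as higher at 0.0309 and 0.168 CPM in the control and 0.6305 and 0.613 CPM in the knockdown (2.57, SE 0.78) and lost its call without each of the 4 libraries (1.87 to 4.16). Wild-type cells had 1.12 and 0.471 CPM of PLAT, so the knockdown values lay between the wild-type values. The inhibitors SERPINA1, or alpha-1 antitrypsin (35.8 and 34.7 to 114 and 117 CPM, 1.71), and TFPI2 (474 and 488 to 928 and 944 CPM, 0.96) rose, as did the chaperone-like protein gene CLU (19.6 and 20.5 to 73.1 and 66.1 CPM, 1.79). F3, or tissue factor, which starts clotting, fell from 30.98 and 33.6 to 15.9 and 18.4 CPM (−0.91), and THBD, or thrombomodulin, which restrains it, from 26.9 and 28.9 to 10.3 and 9.64 CPM (−1.48).

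YAP and TGF-beta targets had more falls than rises. Of 21 tested members, 9 fell (8 with any 1 library left out) and 1 rose, with a median of −0.28. CCN1, a secreted matrix protein and YAP target, stood at 37.2 and 37.5 CPM in the control and 21.03 and 20.2 CPM in the knockdown (−0.86, SE 0.08). ANKRD1, a YAP target, stood at 4.704 and 7.82 against 1.76 and 1.45 CPM (−1.96, SE 0.25). Both knockdown libraries of these genes lay below the control and wild-type libraries. THBS1, or thrombospondin-1, fell from 47.5 and 46.9 to 16.3 and 18.8 CPM (−1.43), but wild-type cells had less still (10.5 and 12.1 CPM). The receptor kinase gene AXL fell at a low level, from 0.681 and 0.726 to 0.126 and 0.0967 CPM (−2.62, SE 0.43). CCN2, a further YAP target, had 2 counts in the control and 1 in the knockdown libraries. The member that rose, ID2 (0.26), lost its call without control 1 (0.20), knockdown 1 (0.26) or knockdown 2 (0.24).

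Of the genes of the EGF receptor and of feedback on ERK, 9 of 24 fell, with all libraries and without each of the 4 in turn, with 2 that rose (0 without control 1, 1 without knockdown 2). EGFR stood at 206 and 198 CPM in control and 123 and 121 CPM in knockdown libraries (−0.73, SE 0.06), with no overlap and with wild-type cells in between (146 and 159.7 CPM). SPRY2, an inhibitor that ERK signals induce, fell from 23.7 and 20.5 to 7.72 and 8.84 CPM (−1.42, SE 0.10), and PHLDA1 from 3.71 and 3.29 to 1.29 and 1.45 CPM (−1.35, SE 0.17). DUSP6, an ERK phosphatase, did not pass (10.9 and 10.7 against 11.1 and 11.3 CPM). Of those that rose, ERBB2 (0.33) lost its call without control 1 (0.30) or knockdown 2 (0.26), and EGF (0.46) without control 1 (0.37). Wild-type cells had more EGF (23.3 and 23.6 CPM) than the knockdown (18.5 and 17.7 CPM). Of 17 AP-1 and immediate early genes, 6 fell and 3 rose, and some of both lost their calls when 1 of the 4 libraries was left out. JUN fell from 44.8 and 43.9 to 25.98 and 29.4 CPM (−0.68), FOS rose from 4.05 and 3.69 to 7.54 and 8.64 CPM (1.06), and EGR1 did not pass (0.26).

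Of 22 tested genes of urea, water, sodium and chloride transport, 6 rose and 3 fell. After SLC14A2 and AQP1, the glycerol and water channel gene AQP3 rose from 1.67 and 2.21 to 8.16 and 9.996 CPM (2.22, SE 0.28). FXYD2, which modulates sodium transport, fell from 63.7 and 66.3 to 46.3 and 45.7 CPM (−0.50) and the sulphate transporter SLC26A2 from 41.9 and 37.6 to 22.2 and 20.9 CPM (−0.88). Of 15 tested potassium channel genes, 5 fell (4, or 3 without control 2), led by KCNJ2 and KCNJ16 (63.4 and 67.7 to 22.3 and 22.8 CPM, −1.54). The 3 that passed as higher, KCNQ3 (2.33), KCNK1 (0.69) and KCNK6 (0.64), numbered 0 without control 1 (1.63, 0.46 and 0.49) or knockdown 2 (2.36, 0.74 and 0.51) and 1 without knockdown 1 (2.29 for KCNQ3 and 0.64 for KCNK1).

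In the cyclic AMP pathway, 4 of 26 tested genes fell: ADCY8, AKAP12, PDE4D and RAPGEF3, a guanine exchange factor that cyclic AMP activates (17.02 and 16.3 to 4.35 and 4.45 CPM, −1.92, SE 0.11). Of 23 phospholipase C and phosphoinositide genes, 6 fell (3 without control 1 or knockdown 1, 4 without the other two), with PLCB4 (204 and 203 to 84.2 and 86.7 CPM) and PLCD3 (32.9 and 32.9 to 21.8 and 21.1 CPM, −0.62) among them. PLCL1 rose, and INPP4B (0.23) passed as higher and lost its call without each library (0.20 to 0.26).

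Markers of ovarian clear cell carcinoma were split, with 5 of 17 tested members higher and 6 lower. SPP1, or osteopontin, went from 2331 and 2363 to 3243 and 3198 CPM (0.46, SE 0.06). PAX8, a transcription factor of Müllerian epithelium, fell from 354 and 344 to 244 and 252 CPM (−0.49, SE 0.05), and CDH6, a cadherin found in tumours of ovary and kidney, from 89.9 and 90.03 to 43.4 and 45.1 CPM (−1.02, SE 0.06). The libraries of control and knockdown did not overlap in any of these genes. ARG2 rose (0.50), and NAPSA (0.85) lost its call without control 1 (0.66), knockdown 1 (0.94) or knockdown 2 (0.74). Wild-type cells had more NAPSA (5.62 and 5.36 CPM) than the knockdown (3.12 and 3.61 CPM). Of 34 epithelial junction and keratin genes, 4 rose (1 without control 1 or knockdown 2, 2 without the other two) and 6 fell. The tight junction genes CLDN1 (512 and 514 to 292 and 275 CPM, −0.86), CLDN16 (142 and 135 to 63.1 and 62.6 CPM, −1.14) and CLDN10 (−0.83) fell, while CDH1, or E-cadherin, did not pass (179 and 179.8 against 178 and 173 CPM). Of 12 mesenchymal genes, FN1 and VIM fell. VIM stood at 38.3 and 32.4 CPM in control, 19.4 and 19.8 CPM in knockdown and 5.04 and 6.37 CPM in wild-type libraries (−0.85), so that the knockdown lay between the others. Of 9 tested pregnancy-specific glycoprotein and CEACAM genes, 3 fell, among them PSG3 (0.712 and 0.642 to 0 and 0.0967 CPM, a control to knockdown ratio of 14.1 with a counting interval of 4.54 to 71.0) and PSG1 (1.05 and 0.894 to 0.189 and 0.0645 CPM); these are near-identical genes among which reads are hard to assign, so single values are uncertain.

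Genes of sterol synthesis and of stress responses had more falls than rises. Of 30 sterol and fatty acid genes, 10 fell (5 without each of the 4 libraries in turn) and 1 rose. SQLE, the squalene epoxidase, went from 361 and 357 to 209 and 220.2 CPM (−0.74, SE 0.06), and INSIG1, which retains the sterol sensor in the endoplasmic reticulum, from 76.5 and 84.5 to 42.8 and 41.05 CPM (−0.94, SE 0.07). SREBF1, the gene of a transcription factor of lipid synthesis, was the member that rose, from 6.68 and 8.405 to 17.8 and 18.5 CPM (1.26, SE 0.13). Among 28 genes of the unfolded protein response and of amino acid shortage, 10 fell and 3 rose, and some of both lost their calls when 1 of the 4 libraries was left out. NUPR1 fell from 86.8 and 77.04 to 32.1 and 30.3 CPM (−1.39), to the level of wild-type cells (29.4 and 26.6 CPM), SLC7A11, the cystine transporter, from 20.5 and 18.8 to 11.6 and 9.84 CPM (−0.87) and TRIB3 from 49.9 and 49.8 to 31.1 and 30.5 CPM (−0.69). VLDLR (1.26) and XBP1 (0.74) rose, and ATF4 (−0.14) and HSPA5 (−0.20) did not pass.

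Of 32 hypoxia and glycolysis genes, 5 rose (3 without each library in turn) and 3 fell, among them P4HA1 and HK2 (0.46) as rises and VEGFA (87.7 and 86.3 to 61.2 and 57.6 CPM, −0.55) and BHLHE40 (−1.11) as falls. Of 26 NRF2 targets and AKR1C genes, 6 rose (3, or 2 without knockdown 1) and 5 fell. AKR1C1 rose from 6.004 and 5.45 to 9.49 and 9.996 CPM (0.77), FTH1, the ferritin heavy chain, fell from 382 and 384 to 289.9 and 283 CPM (−0.42), and NQO1 did not pass (0.15). Of 26 BCL2-family genes, 4 rose and 2 fell (1 without control 1 or knockdown 1). CASP4 rose from 25.1 and 24.1 to 41.6 and 41.4 CPM (0.75), and MCL1 did not pass (0.12).

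Among called genes of the cohesin, scaffold, polycomb, SWI/SNF, HOX and histone lists, SMARCD3 of SWI/SNF alone differed by 2-fold or more (1.702 and 1.12 to 3.31 and 2.81 CPM, 1.12), and it lost its call without each of the 4 libraries (0.84 to 1.45). Of 15 cohesin genes, STAG1 and RAD21 passed as lower, and neither call held in all 4 fits with a library left out (STAG1 −0.22 to −0.27 in the 3 fits that lost it, RAD21 −0.15 to −0.21 in 4). Of 23 genes of topoisomerases, the lamina and chromosome scaffolds, 6 fell (3 without control 1, 2 without each of the others) and 1 rose. LBR, the lamin B receptor that ties heterochromatin to the nuclear envelope, went from 73.1 and 73.7 to 148 and 142 CPM (0.99, SE 0.05), above all control and wild-type libraries. LMNB2, a B-type lamin, fell from 138 and 137 to 103 and 109 CPM (−0.37, SE 0.06), and TOP2A, topoisomerase II alpha (1309 and 1292 to 1128 and 1099 CPM, −0.22), lost its call without control 1 (−0.21) or knockdown 2 (−0.20). Of 28 polycomb genes, 3 rose (1 without control 1 or knockdown 2) and 3 fell (1 without knockdown 2); EZH2 did not pass (44.9 and 44.8 against 45.8 and 43.2 CPM), and PHF19 fell (−0.58). Of 27 SWI/SNF genes, 2 rose (1 without each library in turn) and 5 fell (3 without control 1); SMARCA2, an ATPase of the complex, rose (0.52), and ARID1A did not pass, at 9.87 and 9.69 against 9.02 and 9.16 CPM. Of 28 HOX genes, 3 passed as higher, of which HOXB6 (0.42) kept its call without each library, while HOXA5 (0.70) lost it without either control library (0.66 and 0.74) or knockdown 1 (0.56) and HOXD8 (0.42) without each (0.34 to 0.48). Of 26 replication-dependent histone genes, 5 fell (4 without control 1 or knockdown 2, 3 without the other two), including H1-4 (291 and 301 to 195 and 214 CPM, −0.53).

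Epithelial markers were abundant, and markers of other cell types were scarce. Of 7 epithelial markers, all tested, 1 was called, PAX8; EPCAM stood at 786 and 813 CPM in control and 758 and 805 CPM in knockdown libraries, and the summed level of the list was 3495 and 3483 CPM in the control and 3346 and 3452 CPM in the knockdown. Of 10 leukocyte markers, 4 were tested; their summed level was 5.01 and 5.98 CPM in the control and 3.09 and 4.29 CPM in the knockdown, mostly CD68 and CSF1R, and PTPRC, the pan-leukocyte marker, stood at 0.0309 and 0.0279 CPM in the control and 0.0946 and 0.451 CPM in the knockdown. PTPRC did not pass with all libraries and was called higher without knockdown 1. CSF1R passed as lower (−1.11) and lost its call without either control library (−1.12 and −1.10) or knockdown 1 (−0.81). Of 8 fibroblast markers 2 were tested, with a sum of at most 0.433 CPM in the 4 libraries, and of 7 endothelial markers 1 was tested, with a sum of at most 0.677 CPM.

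Of 1721 long noncoding genes tested, 5.52% were called, and of 12930 protein-coding genes 18.9%; the share called differed with level, as given above, and this contrast was not tested. The largest rises at a mean of at least 1 CPM were those of RALGPS2-AS1 (0.0929 and 0.335 to 3.66 and 3.13 CPM), C1orf220 (0.0619 and 0.558 to 4.79 and 4.29 CPM), LINC02185 (1.83 and 1.703 to 9.24 and 7.93 CPM, 2.28) and LINC01293 (2.17). RALGPS2-AS1 is antisense to RALGPS2, which rose too, and without a known strand setting their reads cannot be told apart. The largest falls were those of WAKMAR2 (3.34 and 2.48 to 0.851 and 0.5804 CPM, −2.02), LINC02068, TCL6 (4.39 and 5.75 to 1.45 and 1.55 CPM, −1.76) and DISC1FP1 (−1.75). LINC02068 (−1.78) lost its call without control 2 (−1.36) or knockdown 1 (−1.57). Of 82 small nuclear RNA genes tested, 12 fell and 1 rose, but these hold near-identical copies among which reads are divided, so single values are uncertain.

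Several called genes lay next to each other. Among 12736 tested protein-coding genes in GENCODE 29 order, there were 33 runs of at least 3 neighbours that all rose and 35 that all fell. The longest held 6 genes. Of protein-coding genes 18.9% were called, 9.20% higher and 9.73% lower, and whether the runs exceed what these shares would give was not tested. Genes in these runs were named after their values were seen, except those already named through a list, such as CHEK2 and XBP1. On chromosome 3, OGG1, CAMK1, TADA3, ARPC4 and TTLL3 rose in a row. CAMK1, a calcium-dependent kinase, led the run, from 30.6 and 29.9 to 136 and 140.3 CPM (2.19, SE 0.06), and ARPC4, of the actin-branching complex, went from 88.8 and 88.8 to 119.7 and 122 CPM (0.45). OGG1, a DNA glycosylase (0.63), lost its call without control 1 (0.50), and the genes on either side, BRPF1 (0.16) and RPUSD3 (0.03), did not pass. On chromosome 22, CHEK2 rose with HSCB (9.44 and 10.7 to 25.1 and 22.1 CPM, 1.23), CCDC117 (0.61), XBP1 (87.5 and 82.6 to 142 and 142 CPM, 0.74) and ZNRF3, between TTC28 (−0.03) and KREMEN1 (0.45), which did not pass.

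On chromosome 10, MMS19, UBTD1, ANKRD2, HOGA1 and C10orf62 fell side by side. HOGA1, a mitochondrial aldolase, went from 114 and 109.7 to 45.1 and 45.5 CPM (−1.30, SE 0.08), ANKRD2 from 10.7 and 10.3 to 4.41 and 3.32 CPM (−1.44) and MMS19 from 100.1 and 95.2 to 75.2 and 72.5 CPM (−0.40). UBTD1 (−0.49) lost its call without either control library (−0.57 and −0.40) or knockdown 2 (−0.33). The run of 6 lay on chromosome 3, where TNFSF10, the death ligand TRAIL, fell from 110.2 and 124 to 58.3 and 57.9 CPM (−1.01, SE 0.09) with ECT2. Its other 4 members lost their calls without some library: PLD1 (−0.66) without knockdown 2 (−0.52), FNDC3B (−0.26) without control 1 (−0.24), NCEH1 (−0.41) without control 1 (−0.36) or knockdown 2 (−0.36), and NLGN1 (−1.02) without control 1 (−0.90) or knockdown 1 (−0.99). Reads of overlapping neighbours can be divided wrongly between them, and their part in these runs was not tested.

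The knockdown effect was set against the effect of ARID1A loss in the same line, to find genes whose effects differ between the contrasts. The contrasts also differ in method (shRNA against CRISPR) and in reference cells. These cannot be told apart here from the gene that was lost or reduced. The contrasts share no library. The difference between them passed for 4381 genes (26.3% of those tested) and for 1649 of the 2639 genes called in the knockdown (62.5%). The difference contains the knockdown effect by which those genes were called, so their higher share largely follows from the selection. PLAU fell in the knockdown (−2.37) and stood at 19.5 and 19.99 CPM in wild-type and 86.4 and 87.9 CPM in ARID1A-knockout libraries (2.14; edgeR adjusted p of the difference 4.98e-10). BIRC3 (−1.38 against 2.17, adjusted p of the difference 9.75e-09), NFKBIA (−0.75 against 0.99, 2.18e-05) and ANKRD1 (−1.96 against 2.24, 2.83e-06) also had effects of opposite sign that differed in edgeR's test. IFI6 (1.04 against −2.19, 1.13e-06), SERPINA1 (1.71 against −3.23, 5.89e-10) and AQP3 (2.22 against −2.44, 4.3e-05) were higher in the knockdown and lower in the knockout.

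For a few other genes the knockout effect was small or opposite. HSPG2 was at 5.33 and 7.46 CPM in wild-type and 5.84 and 6.61 CPM in knockout libraries (−0.05, edgeR adjusted p of the difference 4.89e-07), and RNASET2 and SLC28A3 had knockout effects of −0.15 and −0.38 that did not pass (adjusted p of the difference 6.9e-09 and 6.16e-07). PPIF, higher in the knockdown, passed as lower in the knockout (−0.38, edgeR adjusted p = 0.000238; adjusted p of the difference 1.55e-09). A further set moved the same way: FN1 (−1.72 and −1.86, adjusted p of the difference 0.377), SLC10A2 (−2.29 and −2.32, 0.841) and LAMB1 (0.90 and 1.05, 0.2) had no difference that passed, which does not show that both effects were equal.

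**Figure D5:**
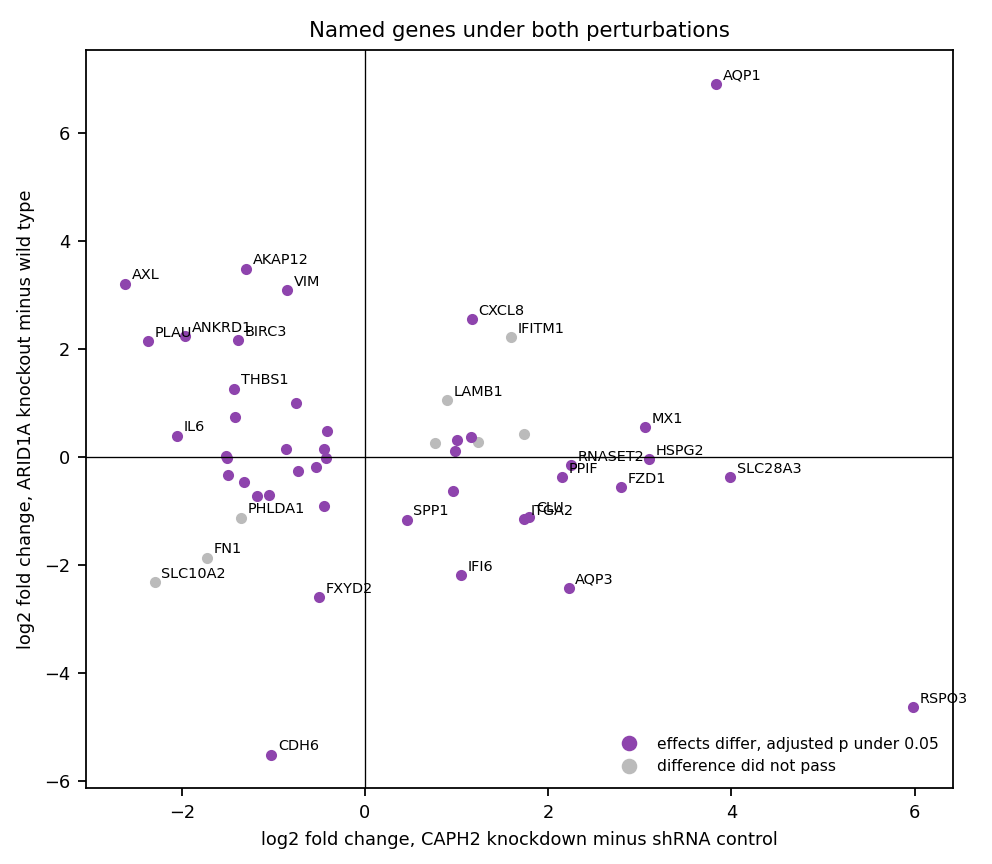
Log2 fold change of 51 named genes in the CAPH2 knockdown (x axis, knockdown minus shRNA control) and in the ARID1A knockout (y axis, knockout minus wild type), n = 2 per group. Purple points (43) passed edgeR's test of the difference between both effects, and genes with a size of at least 2 on the x axis or 1 on the y axis are labelled; PLAU lies low on the x axis and high on the y axis, FN1 and SLC10A2 low on both.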

How the data were processed

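RNA was measured by total RNA sequencing in 8 RMG1 libraries, 2 per group. The authors deposited RSEM 1.2.12 expected counts per gene, given as whole numbers, from reads aligned with Bowtie2 to hg19, per the submitters' processing notes. The sources used here do not name the Bowtie2 version, the gene annotation release or the strand setting. Reads of overlapping, antisense or near-identical genes can therefore be assigned to the wrong one, and no hg19 coordinates are printed. Of 57736 gene IDs, 29952 had a count and 16657 passed edgeR's filter on low counts (filterByExpr, minimum count 10). Symbols came from a reference list of gene names, or from GENCODE 29 where that list had none, and were found for 15090 of the tested IDs.

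A quasi-likelihood model (edgeR 4.0.16, R 4.3.3) with 1 mean per group, TMM scaling and all 8 libraries left 4 residual degrees of freedom, and the common biological coefficient of variation was 7.74%. CPM use TMM-scaled library sizes, and p-values were adjusted by Benjamini-Hochberg over all genes tested at a threshold of 0.05. The script was tested on simulated data. A fold against a group with no count is a lower bound against 3 counts over the group, and ratios with 1 to 3 counts have exact 95% intervals; both cover counting error only. The 46 lists hold 1246 genes, 37 of them without a match in the table and 252 not tested.

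The groups, lists and named genes were chosen with earlier results of these data known. Named genes were, among called protein-coding genes whose groups did not overlap, the 15 largest rises and falls at a mean of 1 CPM or more and the 8 largest at 100 CPM or more, with the 4 largest of long noncoding genes at 1 CPM or more, up to 3 called members of a list in each direction, and defining members of lists. From these, those called without each of the 4 compared libraries in turn were preferred, and where such a gene lost its call the text says so. ZNRF3, C10orf62 and PDE4D are mentioned without being named genes, and whether their calls held in other settings is not given. Alternatives were other scaling factors, no filter, protein-coding genes only, DESeq2 1.42.0, a replicate block, the 4 libraries alone, and each library left out. Promoter sequences came from RefSeq (GRCh38.p14). Some genes of the lists and of the naming rule are not reported here.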

Additional observations from a re-analysis of the deposited data

How the results depend on the processing

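Leaving out 1 of the 4 compared libraries lowered the number of genes called between knockdown and control from 2639 to between 1388 and 1548, of which 1357 to 1473 were among the 2639. These fits have fewer samples, and the lone library of a group is assumed to vary like the other groups. Other settings gave 2289 (DESeq2) to 3528 (without wild-type library 2), within 1.5 times of the reported count, and 2483 with a replicate block. Leaving out the wild-type and ARID1A-knockout libraries was added after seeing the data. The replicate numbers are shared between groups only as numbers: the differences between libraries 1 and 2 correlated at −0.0154 between control and knockdown over genes. The block gave 4209 genes for the difference between the knockdown and the ARID1A-knockout effects, which ranged from 3304 to 4849 over all settings. NCAPH2 stayed between −1.54 and −1.44 and past the threshold in every setting, −1.49 with the block. Of 322 named genes, 272 were called. Of these 272, 244 were called in every setting that left out no single library, and none changed direction in any setting. Many of the 272 lost their calls when 1 of the 4 compared libraries was left out. Some genes that were not called, such as CCN2 and NCAPG2, did change direction. Of the 322 genes, those in the text that DESeq2 did not call were CDKN1B, CGAS, CHEK1, CSF1R, HOXD8, KCNQ3, OAS2, ORM1, RIOX1, SMARCD3 and UBTD1. Leaving out ARID1A-knockout libraries ended no call of those in the text beyond the calls already said to be lost. Depth limits genes near 0, where a single count is 0.0279 CPM or more.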
